A study of Arabidopsis thaliana with 12 samples.

Results

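The genes described here make and regulate indole glucosinolates in Arabidopsis thaliana. The set holds 10 genes, chosen by locus identifier after the transcripts of MYB51, IGMT4, CYP79B2 and CYP83B1 had been seen to move in these libraries. The comparison that drew attention to those 4 genes was not recorded, so their values are given in every comparison as a description, with no test. Of the 10 genes, 9 were in the count table of 25424 genes and all 9 passed the filter on low counts. They are the regulators MYB34 (AT5G60890) and MYB51 (AT1G18570), the enzymes CYP79B2 (AT4G39950), CYP79B3 (AT2G22330), CYP83B1 (AT4G31500), SUR1 (AT2G20610) and UGT74B1 (AT1G24100), and the methyltransferases IGMT4 (AT1G21130) and IGMT5 (AT1G76790). The tenth, MYB122 (AT1G74080), a regulator related to MYB34 and MYB51, was not analysed here.

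Indole glucosinolates are sulfur-containing defence compounds that plants of the cabbage family make from the amino acid tryptophan. CYP79B2 and CYP79B3 turn tryptophan into indole-3-acetaldoxime, CYP83B1 oxidises that compound further, the C-S lyase SUR1 releases a thiol, the glucosyltransferase UGT74B1 adds glucose and a sulfotransferase adds the last group. Cytochromes of the CYP81F family and methyltransferases of the IGMT family then decorate the indole ring. MYB34, MYB51 and MYB122 activate the genes of this route, and indole-3-acetaldoxime also feeds the antimicrobial compound camalexin.

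RNA was sequenced from dissected inflorescence meristems, the growing tips that form flowers. The 12 libraries fell into 4 groups of 3: mutant plants in high air humidity, mutant plants in low air humidity, wild-type plants in high air humidity and wild-type plants in low air humidity. The wild type is col0, the Columbia accession, and the mutant, written pip2 or pip2d in the labels and pip2;5 in the design text, is called pip2 here. PIP2;5 encodes an aquaporin, a water channel of the plasma membrane. The nature of the mutation, the number of lines, the plants' age, the humidity values and whether a replicate was 1 plant or a pool are not stated in those sources. P-values therefore measure only the spread between these libraries.

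Libraries held 17850187 to 28445060 counts, and within groups their log2 CPM (counts scaled to a common library size) correlated across genes at 0.982 or more. PIP2;5 (AT3G54820) averaged 0.785 CPM in pip2 and 70.8 CPM in col0 at low humidity, so the genotype labels and the data went together. Of 6 inflorescence meristem markers 5 were in the table and none was at 0, with a summed level of 285 to 303 CPM in pip2 high, 296 to 300 CPM in pip2 low, 284 to 309 CPM in col0 high and 266 to 290 CPM in col0 low. Markers of other tissue were detected in every library, and some moved with humidity. The summed level of 5 vascular markers was 261 to 297 CPM in pip2 high, 222 to 259 CPM in pip2 low, 275 to 331 CPM in col0 high and 217 to 259 CPM in col0 low. That of 4 anther markers was 2745 to 3096 CPM in pip2 high, 1973 to 2550 CPM in pip2 low, 2313 to 2982 CPM in col0 high and 1614 to 2184 CPM in col0 low. High and low groups did not overlap for either sum in either genotype. Of the 5 vascular markers 0 passed the test described below in pip2. SUC2 differed most in CPM there, with a mean of 110 CPM in pip2 high and 79.9 CPM in pip2 low. Its libraries overlapped, and its log2 value was 0.46 ± 0.23 (adjusted p = 0.185). The anther sum is mostly GRP17. The other 3 anther markers did not pass the test described below in either genotype. In col0 their log2 values ± SE, high minus low, were -0.27 ± 0.20 (AMS), -0.49 ± 0.48 (DYT1) and -0.53 ± 0.33 (TDF1). In pip2, 2 of the 4 were positive and 2 negative. The summed level of 5 green tissue markers was 11240 to 11733 CPM in pip2 high, 9311 to 11336 CPM in pip2 low, 11096 to 11627 CPM in col0 high and 9984 to 11126 CPM in col0 low, with overlap. The markers that passed the test described below rose: GRP17 (anther), CAB3 and LHCB2.2 (green tissue) in both genotypes, and CESA4, CESA7 and CESA8 (vascular) and PSAF (green tissue) in col0. The vascular markers SUC2 and VND7 and the green tissue markers RBCS1A and PSBO1 passed in neither genotype. VND7 was at -0.09 ± 0.40 in pip2 and -0.45 ± 0.40 in col0. RBCS1A was at -0.01 ± 0.09 in pip2 and -0.04 ± 0.09 in col0. Of the meristem markers CLV1 rose in both genotypes. The part of tissue composition in the results was not tested. In bulk tissue, fewer cells of a type and less RNA per cell cannot be told apart.

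Differences are log2 fold changes ± SE with 3 libraries per group, as high minus low humidity or as pip2 minus col0. A gene is said to have risen or fallen where edgeR's quasi-likelihood test, adjusted by Benjamini and Hochberg over 21897 tested genes, gave a p under 0.05. The interaction is the humidity response in pip2 minus that in col0. The 9 genes moved in different ways. At low humidity all 5 genes that can be tested were higher in pip2 than in col0, where 0.9% of all genes were called higher. High humidity went with more MYB51 and IGMT4 and less SUR1 and IGMT5 in both genotypes.

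**Figure D1:**
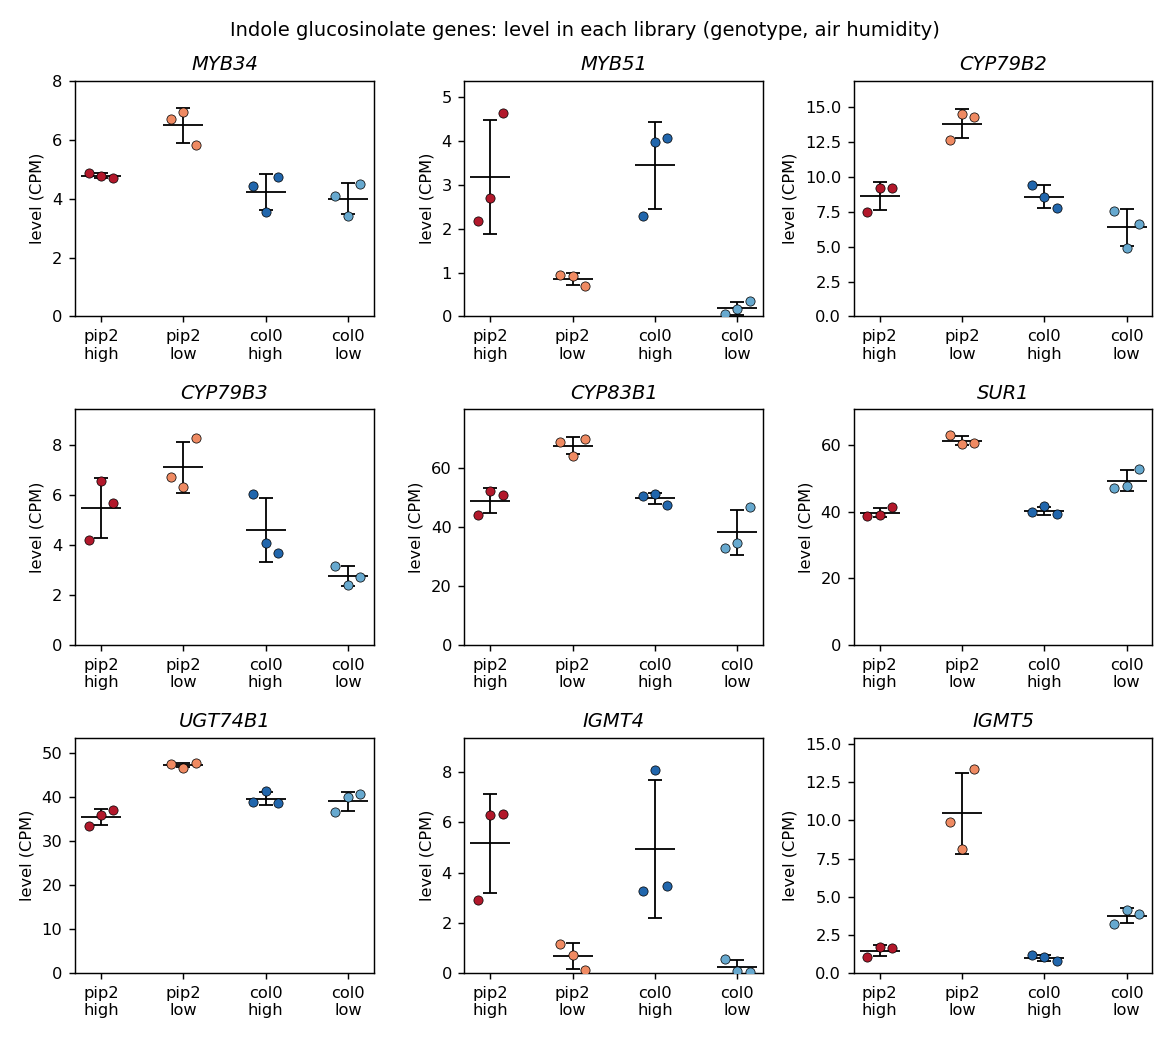
Level of each of the 9 measured genes in every library (CPM, linear axes from 0), with points for the 3 libraries of a group, a line for the mean and bars for the SD. In low humidity pip2 lies above col0 in every panel except that of IGMT4, where the groups overlap, while in high humidity the 2 genotypes overlap in every panel except that of UGT74B1.

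MYB51 is the regulator of the family that is known to act in shoots and in defence. Its level was 2.18, 2.70 and 4.65 CPM in the 3 pip2 libraries at high humidity, against 0.938, 0.935 and 0.697 CPM at low humidity. In col0 it was 2.30, 3.98 and 4.08 CPM at high humidity, against 0.0489, 0.171 and 0.350 CPM at low humidity, where the libraries held 1, 3 and 7 counts. The high and low groups did not overlap in either genotype. The log2 fold change was 1.88 ± 0.37 in pip2 and 4.15 ± 0.47 in col0, with an interaction of -2.27 ± 0.64. The smaller response in pip2 went with a higher level at low humidity, where pip2 minus col0 was 2.14 ± 0.55, whereas at high humidity the difference was -0.13 ± 0.32 and the groups overlapped.

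Within each genotype, the 3 libraries at high humidity had the same order in MYB51 as in a list of 10 genes that respond within minutes to touch and wounding. The mean of that list, in log2 units above its mean in col0 low, was 0.51, 1.72 and 2.24 in pip2 high replicates 1, 2 and 3, and 1.15, 2.61 and 2.65 in col0 high. It was 0.32, 0.41 and -0.10 in pip2 low, and 0.09, 0.11 and -0.20 in col0 low. At low humidity the order of the list was not that of MYB51 in either genotype. In col0 low, replicate 3 was highest in MYB51 and lowest in the list. Replicate 1 was lowest in both high groups for this list and for MYB51. Without these 2 libraries the MYB51 value was 2.09 in pip2 and 4.36 in col0. The part of touch or wounding in the result was not tested.

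MYB34 is the family member best known for its role in roots. It was at 4.86, 4.79 and 4.71 CPM in pip2 high, 6.72, 6.96 and 5.83 CPM in pip2 low, 4.44, 3.57 and 4.73 CPM in col0 high and 4.11, 3.43 and 4.50 CPM in col0 low. The 3 pip2 low libraries were the highest of the 12. At low humidity MYB34 was higher in pip2 by 0.69 ± 0.16 (adjusted p = 0.0275), a 1.62-fold difference. The call was lost when pip2 low replicate 1 or 2, or col0 low replicate 1 or 2, was left out, with adjusted p of 0.106, 0.104, 0.0853 and 0.115. With high humidity the value was -0.44 ± 0.16 in pip2 (adjusted p = 0.0580) and 0.08 ± 0.17 in col0 (adjusted p = 0.760), and the interaction was -0.52 ± 0.23 (adjusted p = 0.636). MYB34 and MYB51 thus differed in their values across the 4 groups, though both encode activators of the same route and their coding sequences were 54.1% identical when aligned.

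To let a reader see the control regions of the genes of the set with the largest increases in high humidity, the 300 bases before the annotated start of transcription are shown for MYB51 (chr1:6389099-6389398, plus strand) and IGMT4 (chr1:7400737-7401036, minus strand), 5′ to 3′ along the gene. They were read from the RefSeq assembly TAIR10.1 by locus identifier. Capitals mark the letters TTGAC or their reverse complement, the core of the W-box bound by WRKY factors.
MYB51: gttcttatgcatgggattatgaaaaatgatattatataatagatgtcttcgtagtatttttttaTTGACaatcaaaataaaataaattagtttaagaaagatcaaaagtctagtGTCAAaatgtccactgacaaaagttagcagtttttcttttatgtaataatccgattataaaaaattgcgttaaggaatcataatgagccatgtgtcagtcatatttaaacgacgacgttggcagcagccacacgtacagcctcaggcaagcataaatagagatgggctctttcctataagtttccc
IGMT4: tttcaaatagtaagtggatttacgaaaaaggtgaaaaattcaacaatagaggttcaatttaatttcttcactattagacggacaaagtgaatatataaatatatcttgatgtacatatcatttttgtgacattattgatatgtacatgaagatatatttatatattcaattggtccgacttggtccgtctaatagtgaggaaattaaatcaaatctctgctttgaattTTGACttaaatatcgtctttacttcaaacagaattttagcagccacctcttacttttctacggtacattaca
The core was found at 2 places in the MYB51 window and at 1 in that of IGMT4, on either strand and with no overlap with the other motifs searched. It occurs in 50.4% of 27443 such windows in the genome. SUR1 held 2 such cores, and the other 6 genes held none. The G-box CACGTG, the letters bound by MYC factors, was found in SUR1 (1 place) among the 9 and in 7.09% of all windows. CGCGTT, the core of a rapid stress response element, was found in UGT74B1 (1 place) and in 3.08% of all windows.

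CYP79B2 and CYP79B3 are a gene pair that encodes the entry step from tryptophan. CYP79B2 was at 7.49, 9.19 and 9.20 CPM in pip2 high, against 12.6, 14.5 and 14.2 CPM in pip2 low. In col0 it was at 9.40, 8.55 and 7.74 CPM in high humidity, against 7.58, 4.91 and 6.60 CPM in low humidity. It therefore lay lower at high humidity in pip2 and higher at high humidity in col0, without overlap in either genotype. The log2 fold change was -0.67 ± 0.15 in pip2 and 0.42 ± 0.15 in col0 (0.27 without col0 low replicate 2), with an interaction of -1.09 ± 0.21. At low humidity pip2 lay above col0 by 1.11 ± 0.15, and at high humidity by 0.02 ± 0.15.

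CYP79B3, which was not among the genes that led to the choice, had the same signs. It was at 4.19, 6.57 and 5.67 CPM in pip2 high, 6.72, 6.34 and 8.27 CPM in pip2 low, 6.06, 4.07 and 3.70 CPM in col0 high and 3.18, 2.40 and 2.70 CPM in col0 low. The lowest libraries were those of col0 in low humidity, and the 2 pip2 groups overlapped. At low humidity it was higher in pip2 by 1.36 ± 0.22 (adjusted p = 0.00139), a 2.57-fold difference that kept its call without any single library. In col0 it rose with high humidity by 0.72 ± 0.22 (adjusted p = 0.0221), but not without col0 high replicate 1 (0.48, adjusted p = 0.122), col0 low replicate 2 (adjusted p = 0.0751) or col0 low replicate 3 (adjusted p = 0.0660). In pip2 the value was -0.37 ± 0.21 (adjusted p = 0.219). The interaction of -1.09 ± 0.31 did not pass over all genes (adjusted p = 0.219).

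The coding sequences of CYP79B2 and CYP79B3 were 77.9% identical, and the windows before their starts are shown because they share the longest stretch of any pair in the set. They lie at chr4:18524742-18525041 and chr2:9488113-9488412, both on the plus strand, and capitals mark the shared stretch.
CYP79B2: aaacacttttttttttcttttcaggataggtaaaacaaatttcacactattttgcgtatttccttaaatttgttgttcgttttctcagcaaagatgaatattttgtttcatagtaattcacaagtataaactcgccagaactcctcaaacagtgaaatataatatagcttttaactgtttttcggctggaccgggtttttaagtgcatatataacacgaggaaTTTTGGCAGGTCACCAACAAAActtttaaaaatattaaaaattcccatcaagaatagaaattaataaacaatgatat
CYP79B3: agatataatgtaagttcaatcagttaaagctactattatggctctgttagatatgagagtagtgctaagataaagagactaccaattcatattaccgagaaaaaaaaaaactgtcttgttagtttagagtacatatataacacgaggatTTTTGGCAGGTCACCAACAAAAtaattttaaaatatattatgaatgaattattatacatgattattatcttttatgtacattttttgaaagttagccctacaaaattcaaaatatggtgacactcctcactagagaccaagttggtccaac
The stretch is 22 bases long and lies 77 to 56 bases before the start of CYP79B2 and 151 to 130 bases before that of CYP79B3. Of 27443 windows only these 2 hold it whole, and the longest stretch shared by any of the other 35 pairs was 13 bases. It was picked as the longest match of these 2 windows, so its rarity elsewhere is a description and no test. The likeness of the 2 windows also continues before the capitals, past a differing base. The 2 genes are related copies, and what the stretch does was not tested.

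CYP83B1 encodes the next cytochrome and had the highest level per length of the set in 3 of the 4 groups. It was at 43.9, 52.1 and 50.7 CPM in pip2 high, against 68.7, 64.1 and 69.8 CPM in pip2 low. In col0 it was at 50.5, 51.0 and 47.6 CPM in high humidity, against 33.0, 34.6 and 46.7 CPM in low humidity. The pip2 low libraries were above all others and the col0 low libraries below all except pip2 high replicate 1, which lay under col0 low replicate 3. The log2 fold change with high humidity was -0.46 ± 0.11 in pip2 and 0.38 ± 0.11 in col0, with an interaction of -0.85 ± 0.15. The genotype difference was 0.83 ± 0.11 at low humidity and -0.02 ± 0.11 at high humidity.

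SUR1, the C-S lyase, fell with high humidity in both genotypes. It was at 38.6, 39.1 and 41.2 CPM in pip2 high, 63.0, 60.4 and 60.6 CPM in pip2 low, 39.8, 41.6 and 39.3 CPM in col0 high and 47.1, 47.8 and 52.8 CPM in col0 low. The 2 groups at high humidity overlapped, and the low groups stood apart from them and from each other. The change was -0.63 ± 0.06 in pip2 (adjusted p = 1.41e-06) and -0.29 ± 0.06 in col0 (adjusted p = 0.00181). At low humidity SUR1 was higher in pip2 by 0.32 ± 0.06 (adjusted p = 0.00607), a 1.24-fold difference. Each of these 3 calls held without any single library. The interaction was -0.34 ± 0.09 (adjusted p = 0.150).

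UGT74B1, the glucosyltransferase, was at 33.6, 36.1 and 37.1 CPM in pip2 high and at 47.6, 46.7 and 47.8 CPM in pip2 low. In col0 it was at 39.0, 41.4 and 38.7 CPM in high humidity and at 36.7, 40.0 and 40.7 CPM in low humidity. Only the pip2 groups stood apart by humidity. It fell with high humidity in pip2 by 0.41 ± 0.06 on the log2 scale (adjusted p = 0.000173), whereas the value in col0 was 0.02 ± 0.06 (adjusted p = 0.851). The interaction passed (-0.43 ± 0.09, adjusted p = 0.0457). That call was kept without pip2 high replicate 2 (adjusted p = 0.0397) and lost without any of the other 11 libraries, with adjusted p of up to 0.141. It was also lost with non-robust dispersion (adjusted p = 0.0578). At low humidity UGT74B1 was higher in pip2 by 0.28 ± 0.06 (adjusted p = 0.0233), a call lost without any of the 3 pip2 low libraries or without col0 low replicate 1 (adjusted p of 0.0565 to 0.137). At high humidity all 3 pip2 libraries lay below the col0 libraries, with a difference of -0.16 ± 0.06 that did not pass (adjusted p = 0.484).

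**Figure D2:**
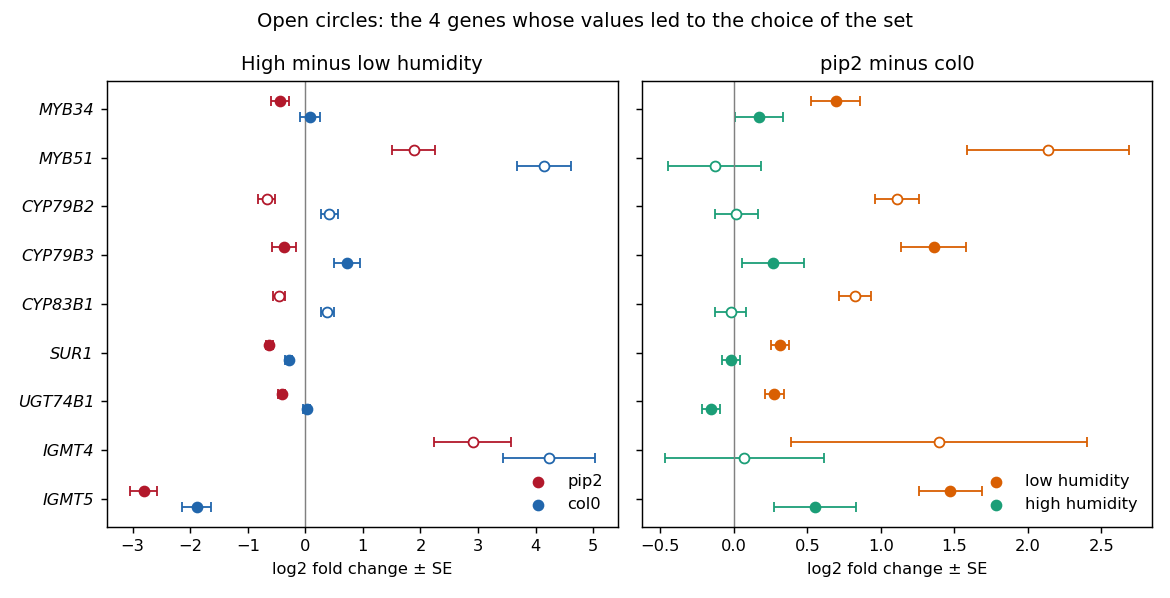
Log2 fold change ± SE of the 9 genes, with high minus low humidity in each genotype on the left and pip2 minus col0 at each humidity on the right. Open circles mark the 4 genes whose values led to the choice of the set. On the right the low humidity points run from 0.28 to 2.14 and the high humidity points from -0.16 to 0.55.

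IGMT4 and IGMT5 encode methyltransferases that act on the indole ring, and they had opposite responses to humidity. IGMT4 was at 2.91, 6.27 and 6.31 CPM in pip2 high, against 1.19, 0.727 and 0.149 CPM in pip2 low. In col0 it was at 3.29, 8.09 and 3.45 CPM in high humidity, against 0.587, 0.114 and 0.05 CPM in low humidity, where the libraries held 12, 2 and 1 counts. High and low groups did not overlap in either genotype, but the libraries within a group varied widely, with a coefficient of variation of 37.8% in pip2 high, 75.5% in pip2 low, 55.1% in col0 high and 117% in col0 low. The log2 fold change was 2.90 ± 0.68 in pip2 and 4.23 ± 0.80 in col0, and the col0 value was 5.84 without col0 low replicate 1. The genotype difference was 1.40 ± 1.01 at low humidity, with overlapping groups, and 0.07 ± 0.54 at high humidity. The low humidity value was 0.74 without pip2 low replicate 1, 0.90 without col0 low replicate 3 and 3.01 without col0 low replicate 1. Without replicate 1 of both high groups the values were 3.18 in pip2 and 4.44 in col0. As for MYB51, replicate 1 was the lowest of its group in pip2 high and in col0 high.

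IGMT5 is known from roots, where it methylates the hydroxyl on the ring nitrogen. It was at 1.06, 1.70 and 1.66 CPM in pip2 high, against 9.88, 8.10 and 13.3 CPM in pip2 low. In col0 it was at 1.20, 1.05 and 0.829 CPM in high humidity, against 3.23, 4.17 and 3.90 CPM in low humidity. The low humidity libraries of pip2 were the highest, those of col0 came next and all 6 libraries at high humidity were lower. It fell with high humidity by 2.81 ± 0.24 on the log2 scale in pip2 (adjusted p = 2.62e-07, 7.01-fold) and by 1.89 ± 0.25 in col0 (adjusted p = 3.79e-05, 3.70-fold). At low humidity it was higher in pip2 by 1.47 ± 0.21 (adjusted p = 0.000460, 2.78-fold). These 3 calls held without any single library. At high humidity the difference was 0.55 ± 0.28 (adjusted p = 0.608), and the interaction was -0.92 ± 0.35 (adjusted p = 0.504).

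The IGMT genes have near copies, so it matters whether reads could be told apart. The same 90 coding bases are shown for IGMT4 (chr1:7399734-7399823), its neighbour IGMT1 (AT1G21100, chr1:7387583-7387672) and IGMT5 (chr1:28822922-28823011), all on the minus strand, with capitals for positions at which the 3 differ.
IGMT4: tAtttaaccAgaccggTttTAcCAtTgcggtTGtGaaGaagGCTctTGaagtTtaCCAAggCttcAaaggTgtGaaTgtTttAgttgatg
IGMT1: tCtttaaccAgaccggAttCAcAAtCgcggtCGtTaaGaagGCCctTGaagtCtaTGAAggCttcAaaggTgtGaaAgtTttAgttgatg
IGMT5: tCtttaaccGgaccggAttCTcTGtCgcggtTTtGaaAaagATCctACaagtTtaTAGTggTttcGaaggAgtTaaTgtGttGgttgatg
In this stretch IGMT1 differs from IGMT4 at 12 positions and IGMT5 at 25. Over the whole coding sequence IGMT4 was 93.0% identical to IGMT1, 93.4% to IGMT3 and 73.2% to IGMT5. Of all 100-base windows of IGMT4 transcripts 3.89% were shared with another locus, and of 1695 50-base windows 170 were. The 100-base windows of IGMT5 shared none, and its 50-base windows 1.67%, with AT1G76780, which overlaps it on the opposite strand. AT1G76780 was not called in any comparison (humidity in pip2 0.42 ± 0.15, adjusted p = 0.0520). IGMT1 and IGMT2 were in the table at 0.259 CPM or less in every group mean and were not tested. IGMT3 was not in the table, so its level is not known here. Counts of IGMT4 are therefore uncertain by what such copies could share. Neither the read length nor the use of strand in counting is given in the sources used here.

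**Figure D3:**
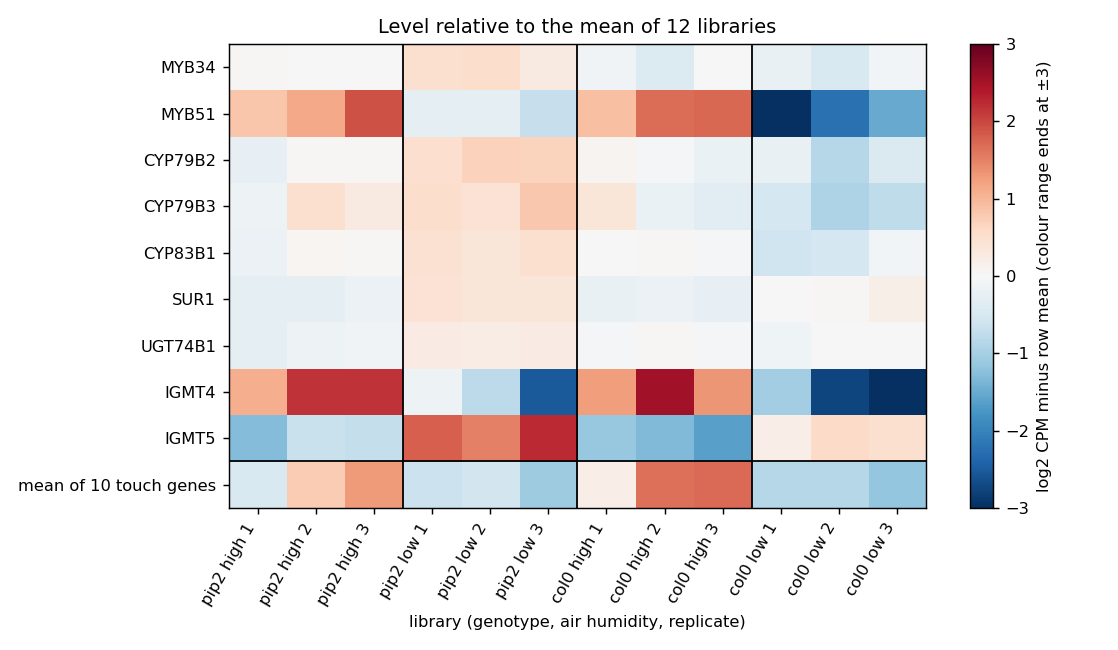
Log2 CPM of each gene in each of the 12 libraries minus the gene's mean over all 12, with red above and blue below the mean and colours ending at ±3. The bottom row is the mean of 10 touch and wound genes. MYB51 and IGMT4 are red in high humidity and blue in low humidity, the touch genes likewise except that pip2 high replicate 1 is blue, IGMT5 is the reverse, and the enzymes between them are palest because their range is smaller.

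Levels of different genes can be set side by side per length, as TPM (transcript abundance scaled for length and depth, from the authors' table). In pip2 low the order was CYP83B1 with 65.2 ± 4.45 TPM (mean ± SD, n = 3), UGT74B1 with 51.5 ± 2.12, SUR1 with 46.0 ± 2.68, IGMT5 with 13.2 ± 3.43, CYP79B2 with 10.3 ± 0.362, MYB34 with 5.95 ± 0.548, CYP79B3 with 4.59 ± 0.716, MYB51 with 0.837 ± 0.133 and IGMT4 with 0.689 ± 0.549 TPM. Neighbours in that order whose libraries overlapped were IGMT5 and CYP79B2, MYB34 and CYP79B3, and MYB51 and IGMT4. In col0 low UGT74B1 had the highest mean with 41.6 ± 1.51 TPM, followed by SUR1 with 36.5 ± 2.35 and CYP83B1 with 36.2 ± 6.78. The libraries of CYP83B1 overlapped those of SUR1 and those of UGT74B1. CYP79B2 with 4.71 ± 1.12 overlapped both IGMT5 with 4.62 ± 0.464 and MYB34 with 3.59 ± 0.527 there, while IGMT5 and MYB34 did not overlap each other. All of these lay above CYP79B3 with 1.82 ± 0.268, IGMT4 with 0.256 ± 0.305 and MYB51 with 0.183 ± 0.146 TPM. The 3 later enzymes were thus the most abundant in both genotypes.

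At high humidity the orders of the 2 genotypes were close. CYP83B1 had 46.2 ± 3.73 TPM in pip2 and 47.7 ± 1.43 TPM in col0, UGT74B1 had 38.1 ± 1.76 TPM in pip2 and 42.7 ± 1.65 TPM in col0, and SUR1 had 29.3 ± 1.43 TPM in pip2 and 30.1 ± 1.01 TPM in col0. The other 6 genes lay between 1.85 ± 0.408 TPM (IGMT5) and 6.41 ± 0.633 TPM (CYP79B2) in pip2, and between 1.29 ± 0.203 TPM (IGMT5) and 6.30 ± 0.494 TPM (CYP79B2) in col0. IGMT4 stood in the middle of the order at high humidity and near the bottom at low humidity, and IGMT5 stood at the bottom at high humidity.

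Counted over the 5 genes that can be tested, 3 fell with high humidity in pip2 (SUR1, UGT74B1 and IGMT5). Of all tested genes 24.2% were called there, 12.3% higher and 11.9% lower. In col0 1 rose (CYP79B3) and 2 fell (SUR1 and IGMT5), where 30.2% of all genes were called, 14.3% higher and 15.9% lower. At low humidity all 5 were higher in pip2 than in col0, where 2.98% of genes were called, 0.9% higher and 2.08% lower. Without pip2 low replicate 1, pip2 low replicate 2 or col0 low replicate 1 that count was 3. With the replicate number as a block 1084 genes were called there, against 652 without it, and the 5 members were still called. At high humidity 0 of 5 were called by edgeR or by DESeq2, with 1 at an unadjusted p under 0.05 (UGT74B1), against 0.589% of all genes. For the interaction 1 of 5 was called (UGT74B1), in the lower direction, against 0.443% of genes in either direction and 0.0868% in the lower. Since the comparison behind the choice was not recorded and the genes belong to 1 route, these counts are given beside their background and nothing is read from them.

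Of the same 5 genes, 4 had no overlap between the high and low humidity libraries in pip2, against 38.1% of all genes, and 3 had none in col0, against 44.8%. At low humidity all 5 lay above col0 in every pip2 library, against 8.47% of all genes. At high humidity 1 of the 5 did not overlap, against 14% of all genes. The 4 genes that led to the choice are left out of these counts. The median of the 5 tested members was -0.44 in pip2 and 0.02 in col0 for humidity, 0.69 for genotype at low humidity, 0.17 for genotype at high humidity and -0.52 for the interaction. The medians over all genes lay between -0.0029 and 0.015. The genotype comparison at low humidity and the humidity response of each genotype share libraries, so a higher level in pip2 low enters each of them.

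Among 20080 other genes that averaged 1 CPM or more, likeness to a member was measured as the root mean square difference in centred log2 CPM over the 12 libraries. For MYB51, whose own SD was 1.58, the nearest genes were AT1G75490 (0.475), the thionin gene THI2.2 (AT5G36910, 0.524), AT1G22690 (0.564), AT2G33830 (0.578) and PR4 (AT3G04720, 0.586), a pathogenesis-related gene. For CYP83B1, whose own SD was 0.324, they were SCRL12 (AT3G23727, 0.160), PMEI2 (AT3G17220, 0.165), AT1G22550 (0.171), the chlorophyllase gene CLH1 (AT1G19670, 0.176) and APK2 (AT4G39940, 0.177). APK2 is an enzyme of the same route, since it makes the donor of the sulfate that is added in the last step.

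Of 8 genes for enzymes of steps that indole and aliphatic glucosinolates share, 5 fell with high humidity in pip2, against 11.9% of all genes. In col0 1 fell, against 15.9% of all genes. At low humidity 4 were higher in pip2 than in col0, against 0.9% of all genes. GSTF9 (AT2G30860), a glutathione transferase, had 142, 172 and 170 CPM in pip2 high, 250, 245 and 260 CPM in pip2 low, 162, 170 and 162 CPM in col0 high and 172, 168 and 191 CPM in col0 low. Its pip2 low libraries stood above all others. It fell in pip2 by 0.64 ± 0.07 on the log2 scale (adjusted p = 7.15e-06) and was higher in pip2 at low humidity by 0.51 ± 0.07 (adjusted p = 0.000413). APK2 had 15.7, 17.8 and 19.8 CPM in pip2 high, 32.1, 27.1 and 30.2 CPM in pip2 low, 16.8, 16.5 and 16.2 CPM in col0 high and 14.8, 14.5 and 19.0 CPM in col0 low. It fell in pip2 by 0.75 ± 0.11 (adjusted p = 9.34e-05) and was higher in pip2 at low humidity by 0.89 ± 0.11 (adjusted p = 9.45e-05), so its pattern was that of GSTF9. For both genes the interaction passed, at -0.54 ± 0.10 (adjusted p = 0.0273) for GSTF9 and at -0.78 ± 0.16 (adjusted p = 0.0350) for APK2. These calls were lost without 7 and 8 of the 12 libraries, taken singly, and that of APK2 also with non-robust dispersion (adjusted p = 0.0647).

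The sulfotransferases that finish glucosinolates also belong to that list. SOT18 (AT1G74090), which acts mainly on aliphatic glucosinolates, fell with high humidity in pip2 by 0.84 ± 0.13 (adjusted p = 0.000159). It also fell in col0 (-0.44 ± 0.13, adjusted p = 0.0137), a call lost without col0 high replicate 2 or 3 or col0 low replicate 1 (adjusted p of 0.0566 to 0.0852). SOT16 (AT1G74100), which prefers indole glucosinolates, was higher in pip2 at low humidity by 0.46 ± 0.07 (adjusted p = 0.000665). SOT17 (AT1G18590) was higher there too (0.75 ± 0.19, adjusted p = 0.0473), a call lost without 9 of the 12 libraries. The median of the 8 genes was -0.45 in pip2 and 0.02 in col0 with humidity, 0.38 for genotype at low humidity and -0.40 for the interaction.

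**Figure D4:**
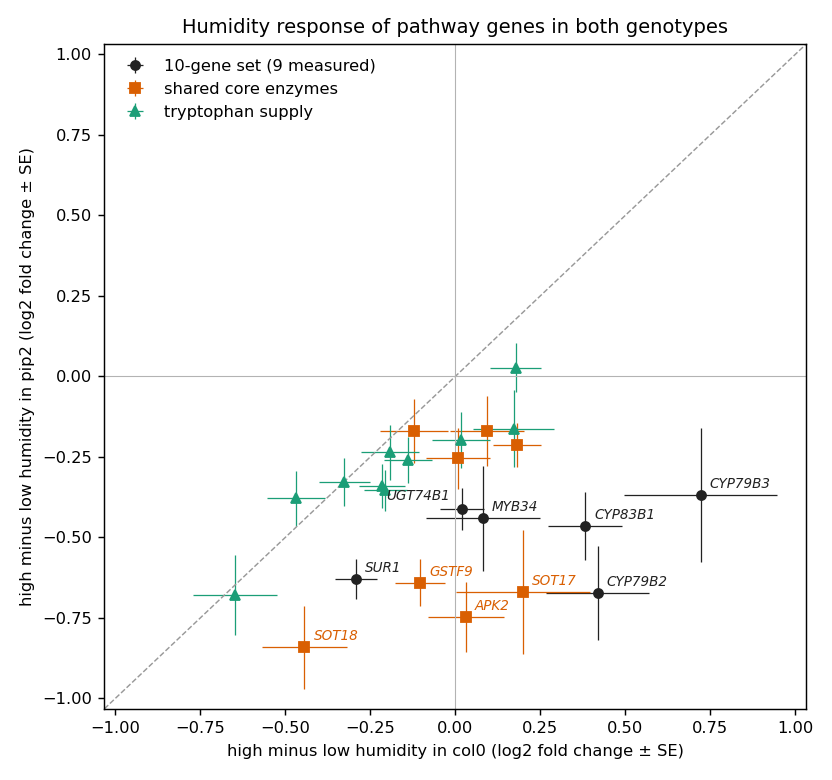
Humidity response in pip2 (vertical) against that in col0 (horizontal), as log2 fold change ± SE, for the gene set (circles), 8 shared core enzymes (squares) and 10 tryptophan genes (triangles). The dashed line marks equal responses. MYB51, IGMT4 and IGMT5 lie outside the axes and are not drawn. SUR1 and SOT18 lie in the lower left, and CYP79B2, CYP79B3 and CYP83B1 in the lower right.

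Several genes of tryptophan supply fell in both genotypes. Of 10 genes of the chorismate to tryptophan route 6 fell with high humidity in pip2, against 11.9% of all genes. In col0 5 fell, against 15.9% of all genes. Between genotypes edgeR and DESeq2 called 0 at either humidity, with 1 gene at an unadjusted p under 0.05 at each. Over all genes edgeR called 2.98% between genotypes at low humidity and 0.589% at high humidity. PAI2 (AT5G05590), a phosphoribosylanthranilate isomerase, fell by 0.68 ± 0.12 in pip2 (adjusted p = 0.000705) and by 0.65 ± 0.12 in col0 (adjusted p = 0.000853). The anthranilate synthase subunit gene ASB1 (AT1G25220) fell by 0.47 ± 0.09 in col0 (adjusted p = 0.000564), and IGPS (AT2G04400) fell by 0.35 ± 0.06 in pip2 (adjusted p = 0.000669). TSB1 (AT5G54810) fell by 0.34 ± 0.07 in pip2 (adjusted p = 0.00156), and TSA1 (AT3G54640) by 0.33 ± 0.07 in col0 (adjusted p = 0.00327), both of tryptophan synthase. In pip2 ASB1 also fell by 0.38 ± 0.09 (adjusted p = 0.0037) and TSA1 by 0.33 ± 0.07 (adjusted p = 0.0040). In col0 IGPS also fell by 0.21 ± 0.06 (adjusted p = 0.0222) and TSB1 by 0.22 ± 0.07 (adjusted p = 0.0243). The col0 calls of IGPS and TSB1 were lost without 3 and 4 of the 12 libraries, taken singly. The median was -0.29 in pip2 and -0.20 in col0.

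Among 4 transporters, PEN3 (AT1G59870), an exporter linked to the secretion of indole glucosinolate products, rose with high humidity in col0 by 1.33 ± 0.20 (adjusted p = 0.00127). In pip2 it was also called (0.65 ± 0.20, adjusted p = 0.0447), but that call was lost without 8 of the 12 libraries (adjusted p of up to 0.148). Its level was 76.9 ± 15.6 CPM in pip2 high, 49.0 ± 5.63 CPM in pip2 low, 89.3 ± 22.5 CPM in col0 high and 35.5 ± 2.60 CPM in col0 low (SD, n = 3). GTR2 (AT5G62680), a glucosinolate importer, fell in pip2 by 0.46 ± 0.07 (adjusted p = 0.000135).

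Genes of glucosinolate breakdown went both ways. Of 11 tested, 3 rose and 4 fell with high humidity in pip2, where 12.3% of all genes rose and 11.9% fell. In col0 3 rose and 3 fell, where 14.3% of all genes rose and 15.9% fell. At low humidity 2 were higher in pip2, against 0.9% of all genes. ESM1 (AT3G14210), which favours isothiocyanates among the products, fell by 0.57 ± 0.09 in pip2 (adjusted p = 0.000144) and by 0.40 ± 0.09 in col0 (adjusted p = 0.00227). The specifier genes moved apart: ESP (AT1G54040) fell in col0 by 0.89 ± 0.16 (adjusted p = 0.00160), NSP1 (AT3G16400) rose in col0 by 0.46 ± 0.09 (adjusted p = 0.00146), and NSP5 (AT5G48180) rose in pip2 by 0.37 ± 0.08 (adjusted p = 0.00197). In pip2 ESP also fell by 0.75 ± 0.15 (adjusted p = 0.0051) and NSP1 rose by 0.32 ± 0.09 (adjusted p = 0.019). In col0 NSP5 rose by 0.27 ± 0.08 (adjusted p = 0.014). The calls of NSP1 in pip2 and NSP5 in col0 were lost without 4 and 2 of the 12 libraries, taken singly. BGLU18 (AT1G52400), a glucosidase of endoplasmic reticulum bodies, fell in pip2 by 0.45 ± 0.10 (adjusted p = 0.00344). At low humidity it was higher in pip2 by 0.47 ± 0.10 (adjusted p = 0.0117), a call lost without pip2 low replicate 3 or col0 low replicate 2 (adjusted p = 0.0739 and 0.0629). ESM1 was the other gene higher there (0.33 ± 0.09, adjusted p = 0.0482), lost without 9 of the 12 libraries. The myrosinase gene TGG2 (AT5G25980) is also 1 of 5 markers of guard and myrosin cells, whose summed level was 4148 to 5159 CPM in pip2 high, 2410 to 3475 CPM in pip2 low, 3533 to 6354 CPM in col0 high and 2891 to 4759 CPM in col0 low, with no marker at 0. That sum is mostly TGG1 and TGG2 themselves. The other 3 were not called in pip2, at 0.19 ± 0.12 for FAMA, 0.28 ± 0.16 for MYB60 and -0.46 ± 0.30 for EPF1. TGG2 rose in pip2 by 0.89 ± 0.27 (adjusted p = 0.0455), lost without 8 of the 12 libraries, and the part of these cells in the result was not tested.

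Of 9 other regulators of the route that were tested, 3 rose with high humidity in pip2, against 12.3% of all genes. In col0 7 rose, against 14.3% of all genes. MYC4 (AT4G17880), a partner of the MYB factors, rose by 0.48 ± 0.08 in col0 (adjusted p = 0.000232). Its call in pip2 (0.26 ± 0.08, adjusted p = 0.0246) was lost without pip2 high replicate 2 or 3 or pip2 low replicate 1 (adjusted p of 0.0530 to 0.114). MYC3 (AT5G46760) rose in pip2 by 0.23 ± 0.06 (adjusted p = 0.00823). In col0 MYC3 rose by 0.19 ± 0.06 (adjusted p = 0.0207), a call lost without 3 of the 12 libraries, taken singly. MPK3 (AT3G45640), a defence kinase, rose in col0 by 0.93 ± 0.17 (adjusted p = 0.00216). ERF6 (AT4G17490), which it phosphorylates, rose in col0 by 1.99 ± 0.46 (adjusted p = 0.00595) and was called in pip2 (1.47 ± 0.45, adjusted p = 0.0316), though not without pip2 high replicate 2 or 3 or any pip2 low library (adjusted p of 0.0601 to 0.118). ERF6 and MPK3 are also stress-responsive. Of the 10 touch and wound genes 3 rose in pip2, where 12.3% of all genes did, and 9 rose in col0, where 14.3% did. In pip2 the call of ERF104 (AT5G61600) was lost without 9 of the 12 libraries, taken singly, and that of TCH4 (AT5G57560) without 4. In col0 the call of TCH4 was lost without 9, and those of CAF1a (AT3G44260) and ZAT12 (AT5G59820) without 5 each. Of that list TCH3 (AT2G41100) rose in col0 by 3.16 ± 0.53 (adjusted p = 0.00235), ZAT10 (AT1G27730) by 3.21 ± 0.62 (adjusted p = 0.00340), and CML38 (AT1G76650) in pip2 by 2.72 ± 0.56 (adjusted p = 0.00581). CML38 also rose in col0, by 2.64 ± 0.54 (adjusted p = 0.0042), a call kept without any single library. For the interaction 0 of the 10 were called by edgeR or DESeq2 and 3 had an unadjusted p under 0.05, with a median of -1.15. Over all genes edgeR called 0.443% for the interaction.

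Of 7 listed genes of ring modification beside IGMT4 and IGMT5, 5 were in the table and 3 were tested. CYP81F3 (AT4G37400), a ring hydroxylase, fell in col0 by 1.58 ± 0.38 (adjusted p = 0.00436), at 0.517 ± 0.142 CPM in high and 1.54 ± 0.306 CPM in low humidity. In pip2 its value was -0.82 ± 0.38 (adjusted p = 0.127). Of 7 camalexin genes 3 were tested. CYP71A13 (AT2G30770), which acts on indole-3-acetaldoxime, fell by 3.16 ± 0.64 in pip2 (adjusted p = 0.00158), at 0.107 ± 0.101 CPM in high and 0.961 ± 0.300 CPM in low humidity. In col0 it fell as well (adjusted p = 0.00916), with 1, 0 and 0 counts at high humidity against 6, 3 and 8 at low humidity. PAD3, which makes camalexin itself, did not pass the filter. CYP71B6 (AT2G24180) rose in col0 by 0.26 ± 0.08 (adjusted p = 0.0241), a call lost without col0 high replicate 1 or 3 or col0 low replicate 1 or 3 (adjusted p of 0.0524 to 0.0880).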

How the data were processed

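Total RNA of inflorescence meristems was sequenced on an Illumina platform. The submitters' processing notes name Trimmomatic 0.39, HISAT2 2.2.1, featureCounts 2.0.6 and the TAIR10 build. Raw read counts per gene, not normalized, make up the deposited count table. The deposited TPM table holds TPM values scaled by the authors for length and depth, and 2537 genes of the count table had no TPM value. In col0 low replicate 1 no gene of the count table was at 0, whereas 884 to 1278 genes were in each other library, so genes silent in that library, and MYB122, were not analysed here.

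Libraries were grouped and numbered by their titles. Genes were filtered with filterByExpr (minimum count 10, minimum total 15) and scaled by TMM (factors 0.972 to 1.04), and edgeR 4.0.16 in R 4.3.3 fitted a quasi-likelihood model with robust dispersion to all 12 libraries, with 1 mean per group. P-values are two-sided and adjusted by Benjamini and Hochberg over all genes tested, and the SE was derived from the log2 fold change and the F statistic. The biological coefficient of variation was 10.3%. Robust dispersion was chosen to give the same numbers of calls as an earlier analysis of these data. The fit was tested on simulated data. CPM were computed here from the counts and the scaled library sizes.

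The members and the gene lists were chosen with earlier results of these data known. Beside all members, the text names up to 3 genes per list and comparison with the smallest adjusted p under 0.05 and a mean of at least 1 CPM, or the gene with the smallest p where none passed. SOT17, TGG2, CYP81F3, CYP71A13, CAF1a, ZAT12, TCH4 in col0 and the markers were named after their values were seen. So were the pip2 values of ESP, NSP1, ASB1 and TSA1 and the col0 values of NSP5, IGPS, TSB1, MYC3 and CML38. For these values, of the alternatives, only the fits without 1 library are given. One regulator on its list is not reported here.

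Replicate numbers were checked as pairs from the correlation of deviations from group means. These were 0.222, 0.174 and 0.373 for humidity in col0 and 0.205, 0.158 and 0.205 for genotype at low humidity. There each lay above every correlation of unlike numbers. The correlations were -0.0303, 0.207 and 0.0478 for humidity in pip2 and -0.00923, 0.220 and 0.235 for genotype at high humidity. There not all lay above those of unlike numbers. The main fit used no pairs in any comparison, so its p-values leave the pairing out. The replicate block was fitted only as an alternative. Alternatives were no filter, RLE factors, DESeq2 1.42.0, only the compared groups, a replicate block, each library left out, non-robust dispersion and both high humidity replicates 1 left out, the last 2 added after seeing the data. Sequences and motifs were read from the RefSeq genome TAIR10.1 with its annotation, by locus identifier, and aligned with Biopython 1.88.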

Additional observations from a re-analysis of the deposited data

Results flagged for a closer look

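The humidity response differed between pip2 and col0 by the interaction test of edgeR for 3 genes of the member and pathway lists that could be tested. These were 1 of the 5 tested members and 2 of the 8 shared core enzymes, all in the lower direction. No gene of the other pathway lists was called. Over all genes 0.443% were called there, and 0.0868% in the lower direction. For UGT74B1 the difference was -0.43 ± 0.09 (log2, response in pip2 minus response in col0, adjusted p = 0.0457), for the glutathione transferase gene GSTF9 it was -0.54 ± 0.10 (adjusted p = 0.0273), and for APK2, which makes the sulfate donor, it was -0.78 ± 0.16 (adjusted p = 0.0350). In each the fall with high humidity was called in pip2 and not in col0, and the level in pip2 low stood above the other 3 groups.

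Leaving out 1 library lost the call for UGT74B1 in 11 of 12 fits, with values of -0.46 to -0.39, for GSTF9 in 7 of 12 (-0.61 to -0.45) and for APK2 in 8 of 12 (-0.91 to -0.70). Without replicate 1 of both high groups all 3 calls were lost, with adjusted p of 0.166 for UGT74B1, 0.0812 for GSTF9 and 0.160 for APK2. With non-robust dispersion UGT74B1 (0.0578) and APK2 (0.0647) missed the threshold as well.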

How the results depend on the processing

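No result changed direction while called. The number of genes called for genotype at low humidity was 652, 390 to 809 without 1 library and 1084 with the replicate block, and the tested members called there were 5, and 3 to 5 without 1 library. For genotype at high humidity it was 129, 78 to 154 without 1 library, 249 with DESeq2 and 314 with the replicate block. For the interaction it was 97, 32 to 110 without 1 library, 186 with DESeq2, 197 with the replicate block and 50 without replicate 1 of both high groups. The members called for the interaction were 1, 0 to 1 without 1 library, 0 with non-robust dispersion and 0 without replicate 1 of both high groups. The replicate block changed no call of a tested member. Of the other genes named, TGG2 in pip2 lost its call with the block (adjusted p = 0.0696) and without a filter (0.0568), PEN3 in pip2 without a filter (0.0562), and TCH4 in col0 with the block (0.0557), without a filter (0.0549) and with only the groups compared (0.0849). With only the groups compared ERF6 (0.0565) and ERF104 (0.0870) in pip2, SOT18 (0.0578), ZAT12 (0.0617) and CAF1a (0.0531) in col0, and ESM1 (0.0640) and SOT17 (0.0950) for genotype at low humidity also lost theirs. ESM1 and SOT17 lost them with non-robust dispersion (0.0715 and 0.0640) and without replicate 1 of both high groups (0.0890 and 0.0722), as did CYP71B6 in col0 without those replicates (0.0608). With non-robust dispersion MYB34 passed for humidity in pip2 (-0.44, adjusted p = 0.0499). CYP79B3 in col0 was not called without replicate 1 of both high groups (0.48, adjusted p = 0.0914). No interaction was fitted from the compared groups alone, since it needs all 4. At this depth MYB51 and IGMT4 in col0 low rest on 1 to 12 counts per library, which limits their folds. The cause of these shifts was not tested.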
